A study of Homo sapiens with 9 samples.

Results

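The sites described here are 897 autosomal regions that carried a γH2AX peak after aphidicolin and after methyl methanesulfonate treatment and none after hydroxyurea treatment or without treatment. They were selected on measured values: the peaks of 8 lists were merged wherever they shared at least 1 bp, and a merged region was kept when at least 1 aphidicolin (APH) list and at least 1 methyl methanesulfonate (MMS) list had a peak in it and no hydroxyurea (HU) or untreated list had. They were 897 of the 145144 merged regions on chromosomes 1 to 22, or 0.618%. Of the 3050 regions that held both APH and MMS peaks, 1404 also held an HU peak, 186 an untreated peak and 563 both, so the sites were 29.4% of them. Peak presence, fold enrichment, p-value and q-value all belong to the measurement that chose the sites, and they are given as a description without a test.

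The study mapped the phosphorylated histone H2AX (γH2AX) by ChIP-seq in a human B-lymphocyte line, to find where stress on DNA replication leaves damage. All cells were of 1 line, and each of the 4 groups had 2 libraries: untreated cells, cells with 0.1 μg/mL APH, cells with 2 mM HU and cells with 200 μM MMS, each drug for 24 h. Every list was called on 1 library alone, and on chromosomes 1 to 22 the lists held 17658 and 14009 peaks for APH, 12202 and 10465 for MMS, 79891 and 69922 for HU, and 4779 and 4327 for untreated cells. The HU lists covered 89.6 and 73.8 Mb of the genome and the APH lists 12.4 and 9.64 Mb, so "no HU peak" was a condition set against far larger lists. Absence from a peak list is not absence of γH2AX, and since the lists hold no read numbers, the depth behind them is unknown. They hold no expression values either, so the labelled cell type was not checked against marker genes.

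γH2AX is the form of the histone variant H2AX that the kinases ATR, ATM and DNA-PK phosphorylate around stalled replication forks and DNA breaks, and it can spread well beyond the lesion. Aphidicolin inhibits the replicative DNA polymerases, hydroxyurea depletes deoxynucleotides by inhibiting ribonucleotide reductase, and MMS methylates DNA bases, which are removed by direct reversal or base excision repair. Common fragile sites are chromosome bands that show gaps and breaks on metaphase chromosomes under partial replication stress, classically with aphidicolin, and several of them lie in very long genes such as FHIT and WWOX.

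The sequence under 4 of the sites is shown here, from the hg38 reference on the plus strand. Sites were ranked by number of lists and then by mean fold enrichment, and these are the first 4 that touch no annotated exon. They are described below by their genes. The sites in SLC39A11 and MIER2 had peaks in all 4 lists, and those in HHIPL1 and PCNT in 3. Each run is 240 bases long. Capitals mark the bases that the largest number of the 4 APH and MMS lists covered in that site, which was 3 lists in SLC39A11, MIER2 and PCNT and 2 lists in HHIPL1.
SLC39A11 intron, chr17:72735522-72735761: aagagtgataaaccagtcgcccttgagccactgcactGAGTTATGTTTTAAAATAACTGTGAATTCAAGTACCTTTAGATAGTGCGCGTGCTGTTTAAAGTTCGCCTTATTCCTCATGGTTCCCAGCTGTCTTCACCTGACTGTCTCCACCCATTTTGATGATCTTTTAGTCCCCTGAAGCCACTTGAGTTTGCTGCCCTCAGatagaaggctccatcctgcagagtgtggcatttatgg
MIER2 intron, chr19:342219-342458: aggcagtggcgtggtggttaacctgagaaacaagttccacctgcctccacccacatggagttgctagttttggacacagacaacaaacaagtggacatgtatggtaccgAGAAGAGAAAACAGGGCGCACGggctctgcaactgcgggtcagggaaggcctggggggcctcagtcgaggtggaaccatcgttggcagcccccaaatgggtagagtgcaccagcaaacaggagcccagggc
HHIPL1 intron, chr14:99657797-99658036: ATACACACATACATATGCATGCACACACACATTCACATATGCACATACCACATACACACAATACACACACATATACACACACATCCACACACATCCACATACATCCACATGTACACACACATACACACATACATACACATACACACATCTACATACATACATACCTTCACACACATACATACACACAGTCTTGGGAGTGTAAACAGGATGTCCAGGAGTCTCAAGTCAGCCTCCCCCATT
PCNT intron, chr21:46374244-46374483: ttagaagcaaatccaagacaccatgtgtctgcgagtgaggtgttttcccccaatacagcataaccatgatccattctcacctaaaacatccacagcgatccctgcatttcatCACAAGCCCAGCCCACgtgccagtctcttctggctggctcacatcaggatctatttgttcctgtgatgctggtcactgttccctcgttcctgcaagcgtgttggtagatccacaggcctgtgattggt

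The 4 runs had little in common by eye, and their GC content was 45.4% in SLC39A11, 57.5% in MIER2, 41.2% in HHIPL1 and 50% in PCNT. The shared stretch was 166 bp long in SLC39A11, 22 bp in MIER2, 16 bp in PCNT and 647 bp in HHIPL1, where it ran past both ends of the bases shown. Apart from its last bases, the HHIPL1 run was made of short stretches of alternating C and A with T between them.

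The sites were short, and most of them rested on 1 peak of each treatment. Their width ran from 229 to 4023 bp with a median of 932 bp. In 787 of the 897 sites (87.7%) the peaks came from 2 of the 4 lists, in 104 (11.6%) from 3 lists and in 6 (0.669%) from all 4. The most frequent pattern was APH replicate 1 with MMS replicate 1 (265 sites), followed by APH replicate 2 with MMS replicate 1 (197), APH replicate 1 with MMS replicate 2 (185) and APH replicate 2 with MMS replicate 2 (140). Both APH replicates had a peak in 75 sites (8.36%), where 6.92% of all regions with an APH peak had one in both. Both MMS replicates had a peak in 41 sites (4.57%), where the share over all regions with an MMS peak was 4.11%. These shares belong to the lists that chose the sites, and nothing is read from their difference. The rule kept 424 sites without APH replicate 1, 546 without APH replicate 2, 397 without MMS replicate 1 and 540 without MMS replicate 2.

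Enrichment at the sites was modest and of the same size as elsewhere in the lists. The 551 APH replicate 1 peaks of the sites had a median fold enrichment of 2.55 (from 2.25 to 3.75), the 424 of APH replicate 2 one of 2.67 (2.31 to 3.41), the 539 of MMS replicate 1 one of 2.66 (2.33 to 3.95) and the 400 of MMS replicate 2 one of 2.67 (2.32 to 3.39). The medians over the whole lists were 2.55, 2.67, 2.64 and 2.64 in the same order. The median −log10 p of the sites' peaks was 3.17, 3.47, 3.49 and 3.47, close to the threshold of 3 that every peak in the files passes. After the peak caller's correction for multiple positions few were left: peaks at a q-value of 0.05 or less numbered 3 in APH replicate 1 (0.544% of the sites' peaks there, against 0.549% of the whole list), 1 in APH replicate 2 (0.236% against 1.31%), 1 in MMS replicate 1 (0.186% against 0.164%) and 0 in MMS replicate 2 (against 0.191%).

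**Figure D1:**
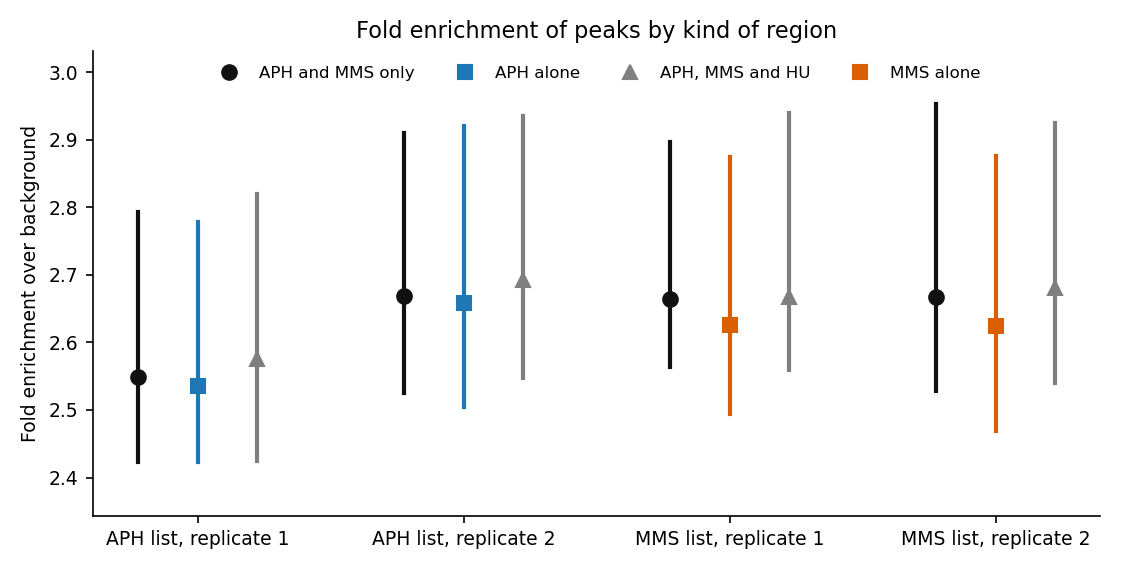
Fold enrichment of peaks (vertical axis, ratio to background, not starting at 0) in each APH and MMS list, for the shared APH and MMS sites, for regions of the same treatment alone and for regions with APH, MMS and HU peaks. Markers are medians and lines run from the 10th to the 90th percentile of peaks; within every list the 3 kinds of region overlap almost entirely, with medians between 2.53 and 2.69.

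Some sites lay close to the limits of the rule. The smallest overlap of an APH and an MMS peak was 2 bp, in a region on chromosome 3 (139588023 to 139588703), and 131 sites had an overlap of at most 100 bp. The median of the widest overlap was 265 bp, or 80.4% of the shorter peak. Just outside, 75 regions with APH peaks alone lay within 100 bp of a region with MMS peaks alone without sharing a base, the nearest of them abutting it on chromosome 19 (5320646 to 5321115). The site nearest to an HU peak, on chromosome 19 (58436944 to 58437646), abutted it without overlap and was also the one nearest to an untreated peak, at 55 bp. In all, 22 sites had an HU peak within 100 bp. On the other side of that limit, 28 regions with APH, MMS and HU peaks had an overlap of at most 100 bp with HU, the smallest being 3 bp on chromosome 9 (4286176 to 4287584). The weakest peaks inside the rule had a −log10 p of 3.01 and 3.03 in the APH lists and of 3.03 and 3.02 in the MMS lists.

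Hydroxyurea peaks were often close by. The distance from a site to the nearest HU peak had a median of 6523 bp, and an HU peak lay within 1 kb of 155 sites (17.3%) and within 10 kb of 531 (59.2%). For regions of APH alone, 45.2% had an HU peak within 10 kb, and for regions of MMS alone 51.8%. Untreated peaks were farther off, with a median distance of 56093 bp, compared with 78023 bp for regions of APH alone and 105589 bp for regions of MMS alone. The sites were wider than those regions, whose median widths were 522 and 495 bp, and the part of width in these distances was not tested.

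The best-replicated sites were 6 regions with a peak in each of the 4 lists. All lay in a protein-coding gene, and none in a common fragile site band. Over all sites 63.1% lay in such a gene and 28.0% in a band, as did 29.5% of all merged regions. With only 6 regions nothing is read from these counts. The one with the highest mean fold enrichment was on chromosome 17 (72734182 to 72736400), in an intron of SLC39A11, a zinc transporter gene. Its peaks had a fold enrichment of 3.46 and 2.81 with APH and of 2.74 and 2.62 with MMS. APH replicate 1 stood highest there and both MMS values lowest. The site was ranked by these same values, so no difference between the treatments is read from their order.

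The site in an intron of HM13, the signal peptide peptidase gene, on chromosome 20 (31536365 to 31538421), had values of 2.75 and 2.78 with APH and of 2.86 and 3.19 with MMS. Here the MMS values were the higher pair. The widest of the 6, on chromosome 17 (782858 to 786300), had its centre in the overlap of GLOD4 and MRM3, the latter encoding a mitochondrial ribosomal RNA methyltransferase. It held 3 peaks of APH replicate 1 and 2 of MMS replicate 1, with highest values of 2.54 and 2.75 for APH and of 2.79 and 2.77 for MMS.

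The other 3 lay in MIER2, FKBP4 and RBFA. In the MIER2 intron on chromosome 19 (341729 to 343194) the values were 2.49 and 2.62 with APH and 2.78 and 2.62 with MMS. The site centred in an exon of FKBP4, which encodes a co-chaperone of steroid receptors, on chromosome 12 (2803952 to 2805573), had 2.44 and 2.62 with APH and 2.62 and 2.76 with MMS. The antisense RNA gene ITFG2-AS1 overlaps it, and a γH2AX peak does not tell strands apart. The site in an intron of RBFA, a mitochondrial ribosome assembly factor gene, on chromosome 18 (80042657 to 80044363), had 2.45 and 2.61 with APH and 2.57 and 2.61 with MMS.

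All 6 had an HU peak not far away, at 1041 bp for SLC39A11, 359 bp for HM13, 5507 bp for GLOD4 and MRM3, 4054 bp for MIER2, 1779 bp for FKBP4 and 6518 bp for RBFA. After these came 104 sites with 3 lists, and those in HHIPL1 and PCNT had the highest means among them. The HHIPL1 site on chromosome 14 (99657466 to 99658914) had 2.69 and 2.89 with APH and 3.203 with MMS replicate 1. The site in PCNT, which encodes the centrosome scaffold pericentrin, on chromosome 21 (46374079 to 46375585), had 3.08 and 2.93 with APH and 2.76 with MMS replicate 1. An intergenic site on chromosome 11 (119783365 to 119785080), 54164 bp from NECTIN1, had 2.84 with APH replicate 1 and 2.59 and 3.24 with MMS.

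**Figure D2:**
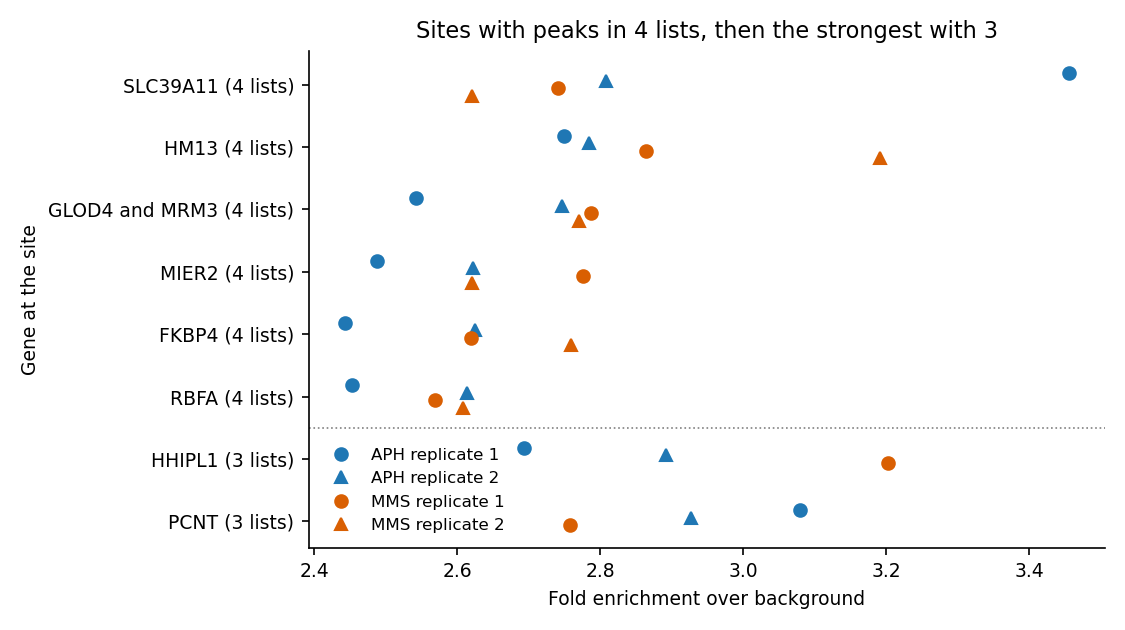
Fold enrichment (horizontal axis, ratio to background, not starting at 0) of the highest peak of each APH and MMS list at the 6 sites with peaks in all 4 lists and, below the dotted line, at the 2 sites with 3 lists that had the highest mean. Points are single lists; most lie between 2.4 and 3.0, and the 3 values above 3.1 come from 3 different sites.

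By chromosome, the sites were densest on 22 and 16 and thinnest on 4. Chromosome 22 held 30 sites, or 0.766 per assembled Mb, and chromosome 16 held 62, or 0.758 per Mb, where the autosomes together had 0.325 per Mb. Chromosome 4 held 31 sites, or 0.163 per Mb. In number, chromosome 9 led with 69 sites (0.567 per Mb), to which each list added a like share: 40 and 35 sites with an APH peak and 33 and 37 with an MMS peak. On chromosome 22 the lists differed more, with 25 sites from MMS replicate 1 and 7 from MMS replicate 2. Leaving out 1 APH or MMS list lowered the 4 counts, with MMS replicate 1 mattering most on chromosomes 22 (7 sites without it) and 16 (21), and left 15 to 19 sites on chromosome 4 and 33 to 41 on chromosome 9. Of the 30828 regions that had APH or MMS peaks and neither HU nor untreated peaks, 2.91% were sites. That share ran from 1.95% on chromosome 7 to 4.43% on chromosome 18. Chromosome 22 had 3.78% and chromosome 4 had 2.91%, so chromosome 4 was thin in sites per Mb and at the overall value per candidate region.

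**Figure D3:**
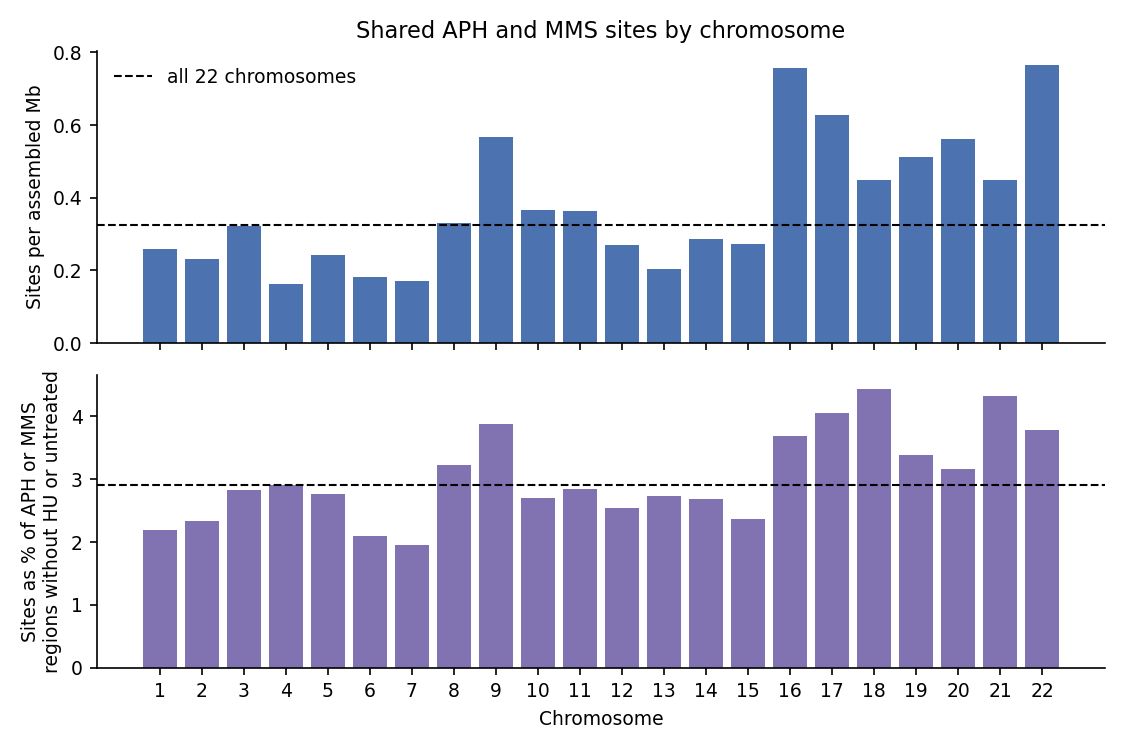
Shared APH and MMS sites on each of the 22 autosomes, as sites per assembled Mb (top) and as the percentage of regions with APH or MMS peaks and without HU or untreated peaks (bottom); dashed lines give the values over all autosomes, 0.325 per Mb and 2.91%. Chromosomes 16 and 22 stand highest in the top panel and chromosome 18 in the bottom one.

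The sites fell in 594 bins of 1 Mb, and 490 of the 897 shared a bin with another site. The same counts were not made for other regions, so no clustering particular to the sites is read from them. Bins with 7 sites were found on chromosome 8 (144000001 to 145000000) and chromosome 21 (46000001 to 47000000), and bins with 6 at the start of chromosome 10 and on chromosome 18 (80000001 to 81000000). These 4 bins, chosen after their counts were seen, all lay at or near a chromosome end. The chromosome 21 bin held 4 sites in PCNT and 2 in MCM3AP, and the chromosome 8 bin 1 site in TONSL, which acts in the repair of stalled forks. Peaks of the other lists were also dense there: the chromosome 21 bin held 77 and 72 untreated and 48 and 50 HU peaks, and the one on chromosome 8 held 27 and 24 untreated and 64 and 56 HU peaks. Over all sites, 79 (8.81%) lay within 1 Mb of a chromosome end, where 1.35% of assembled bases lie. Regions of APH alone had 5.10% there, regions of MMS alone 2.15% and regions with APH, MMS and HU peaks 3.99%.

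Most sites lay in genes, as did most peaks of the other kinds of region. The centre of 566 sites (63.1%) was inside a RefSeq protein-coding gene, and 88 (9.81%) were in another kind of gene only. By the GENCODE annotation 594 centres (66.2%) were intronic, 84 (9.36%) fell in an exon, UTRs included, and 219 (24.4%) were intergenic. Counted by peak, the mean share in protein-coding genes was 63.6% in the sites. It was 59.7% in regions of a single treatment and 63.3% in regions with APH, MMS and HU peaks. Exon, intron and intergenic shares of other regions were not computed. The sites touched 521 protein-coding genes, 2.72% of the 19126 on the autosomes. Of these, 456 held 1 site, 51 held 2, 10 held 3, 3 held 4 and 1 held 5. Their median length was 104 kb, against 24.5 kb over all autosomal protein-coding genes, 69.6 kb for genes with a region of APH alone, 79.9 kb with a region of MMS alone and 40.8 kb with a region of APH, MMS and HU. A longer gene can hold more regions of any kind, and the part of length in these medians was not tested. Each gene counts once in them. Counted by peak, the genes of the sites were shorter than those of regions of a single treatment, as given below.

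The gene with the most sites was WWOX, which encodes a WW domain oxidoreductase and spans the fragile site FRA16D on chromosome 16 (78099654 to 79212667). It held 5 sites, all intronic, over its 1113 kb. Its APH lists held 160 and 53 peaks, its MMS lists 3 and 6, its untreated lists 5 and 1, and both HU lists 0. The APH peaks thus outnumbered those of MMS in every pairing of lists, and 5 of the 9 MMS peaks lay in its sites. All 5 sites had a peak of APH replicate 1 and 1 had a peak of APH replicate 2, so that 1 site was left in WWOX without APH replicate 1 and 1 without MMS replicate 2.

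In the site with peaks of 3 lists (78774999 to 78776462) the fold enrichment was 2.73 and 2.88 with APH and 2.602 with MMS replicate 1. The highest single value in WWOX was 3.32, with MMS replicate 2 at 78270273 to 78272993, where APH replicate 1 had 2.58. The nearest HU peak was between 232083 and 1032020 bp from these sites. The last of these distances was the longest of any site.

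Next came 3 genes with 4 sites each. PCNT held 4 intronic sites in 122 kb, or 32.9 per Mb of gene, and it had peaks in every list: 19 and 12 untreated, 30 and 23 APH, 3 and 4 HU, and 13 and 8 MMS. KLHL29 on chromosome 2 held 4 in 323 kb, with 11 and 11 APH peaks, 7 and 3 MMS peaks, 5 and 3 HU peaks and 0 and 2 untreated peaks in the gene. DIP2C, near the start of chromosome 10, held 4 in 415 kb, with 30 and 24 APH peaks and 4 and 1 MMS peaks. As in WWOX, both HU lists had 0 peaks in DIP2C, while the untreated lists had 5 and 6. Leaving out APH replicate 1 or MMS replicate 1 left 2 sites in PCNT, and leaving out MMS replicate 1 left 1 each in KLHL29 and DIP2C. With no HU or untreated peak within 5 kb, PCNT held 1 site, KLHL29 2 and DIP2C 4, and WWOX kept 5. PCNT also held 1 when peaks within 1 kb were merged.

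Of the genes with 3 sites, QDPR (25.7 kb), which encodes a reductase that recycles the cofactor tetrahydrobiopterin, and LIG3 (30.4 kb), a DNA ligase gene, were the shortest, at 117 and 98.8 sites per Mb. QDPR had 3 APH peaks and 3 MMS peaks in all, and its sites drew on all 4 lists. The other genes with 3 sites that the ranking named were SHB, an adaptor protein gene (153 kb), TRERF1, a transcriptional regulator gene (227 kb), the predicted gene LOC124900165 (230.4 kb) and CACNA1B, an N-type calcium channel gene (247 kb). They differed in HU peaks, of which TRERF1 held 26 and 28, SHB 7 and 8, LOC124900165 2 and 2, and CACNA1B 0 and 1. The sites in TRERF1 lay 293, 513 and 7069 bp from an HU peak. These counts rested on single lists: without APH replicate 2 each of QDPR, SHB, TRERF1, LOC124900165 and CACNA1B held 1 site. Without MMS replicate 1 QDPR and TRERF1 held 1 each, and without MMS replicate 2 SHB held 0 and LOC124900165 held 1. Without untreated replicate 1 CACNA1B held 5. With no HU or untreated peak within 5 kb, SHB held 0, TRERF1, LOC124900165 and CACNA1B 1 each, QDPR 2 and LIG3 3.

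**Figure D4:**
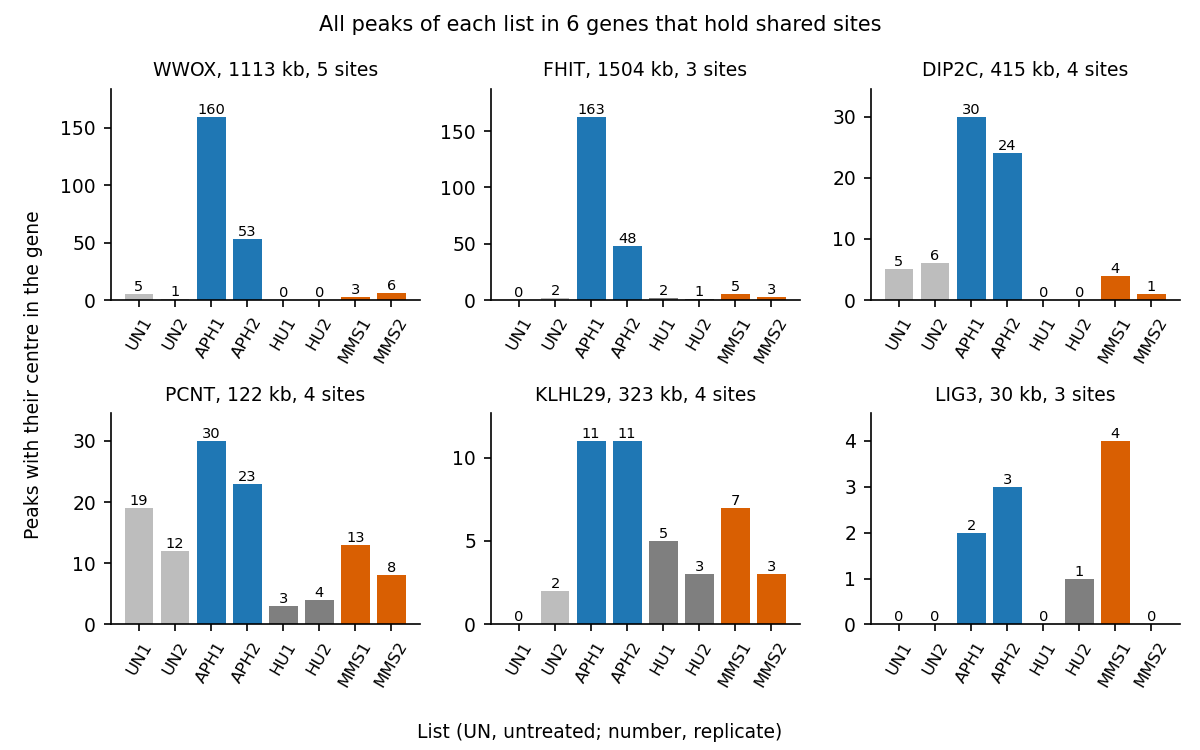
Number of peaks with their centre in 6 genes that hold shared sites (vertical axis, from 0, a different scale in each panel) in each of the 8 lists (UN, untreated; the digit is the replicate). In WWOX and FHIT the APH bars, 160 and 53 and 163 and 48, stand far above all others, whereas in PCNT every list has peaks.

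Of 4 gene lists, the one of large fragile site genes held the most sites. It has 31 genes, with a median length of 1370 kb, and 5 of them (16.1%) held 11 sites: WWOX with 5, FHIT with 3, and AUTS2, PTPRG and CDH13 with 1 each. Another 26 held none. Over all autosomal protein-coding genes 2.72% held a site, but those genes are far shorter, so the shares cannot be compared directly. FHIT, which encodes a diadenosine triphosphate hydrolase and spans FRA3B, had 163 and 48 APH peaks and only 5 and 3 MMS peaks in its 1504 kb. Its 3 sites each had a peak of APH replicate 1 and of MMS replicate 1, with fold enrichments of 2.64 and 2.67, 2.59 and 2.53, and 2.76 and 2.66, and none in the second replicates, so FHIT held 0 sites without APH replicate 1 or without MMS replicate 1.

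PTPRG, a receptor tyrosine phosphatase gene beside FHIT, held 1 site (2.52 with APH replicate 1 and 2.67 with MMS replicate 1), and CDH13, the T-cadherin gene, 1 (2.55 and 2.51 in the same lists). The site in AUTS2, a gene for neuronal development, had 2.56 with APH replicate 2 and 2.98 with MMS replicate 2 and lay 794 bp from an HU peak. In this list the sites of FHIT, PTPRG and CDH13 all came from the first replicates, and that of AUTS2 from the second ones.

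Of 24 B lymphocyte genes, PAX5 alone (4.17%) held a site, where 2.72% of all autosomal protein-coding genes did. PAX5, the transcription factor that sets B cell identity, had it in an intron on chromosome 9 (36946223 to 36946971), with fold enrichments of 3.07 in APH replicate 2 and 2.68 in MMS replicate 2, 8226 bp from an HU peak. Of 35 replication fork and checkpoint genes, only POLE (2.86%, near the 2.72% of all genes), the catalytic subunit gene of DNA polymerase ε, held any, and it had 2. They carried values of 2.42 with APH replicate 1 and 2.61 with MMS replicate 1, and of 2.73 with APH replicate 1 and 2.82 with MMS replicate 2. PAX5 held 0 sites without either second replicate of APH or MMS, and POLE 0 without APH replicate 1.

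Of 16 genes for the repair of DNA methylation damage, 2 held sites (12.5%, against 2.72% of all genes): LIG3 with 3 and XRCC1 with 1. With 2 genes this share says nothing particular about the list. XRCC1 is a scaffold protein of base excision repair. In LIG3 the sites were centred in exons, with values of 2.51 in APH replicate 2 and 2.84 in MMS replicate 1, of 2.64 and 2.73 in the same lists, and of 2.61 in APH replicate 1 and 2.66 in MMS replicate 1. MMS replicate 2 had 0 peaks in LIG3, so its MMS part rests on 1 library and the gene held 0 sites without MMS replicate 1. The XRCC1 site had 2.49 with APH replicate 1 and 2.598 with MMS replicate 2.

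Common fragile site bands held 251 of the 897 sites, or 28.0%, close to the 29.5% of all merged regions and to the 26.6% of assembled bases in these bands. Sites numbered 0.342 per Mb inside the bands and 0.319 per Mb outside. Of 108 autosomal bands, 68 held at least 1 site and 40 held none. Most sites fell in FRA16D at 16q23 and FRA19A at 19q13, with 19 each, followed by FRA4A at 4p16 with 13.

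Per Mb, FRA22B at 22q12.2 led with 1.92 (5 sites), ahead of FRA16D with 1.90 and FRA8D at 8q24.3 with 1.62 (10 sites). FRA8D held 3 sites without the 1 Mb bins with the most sites. With no HU or untreated peak within 5 kb, FRA22B held 2, FRA16D 13 and FRA8D 3. Of the 5 sites of FRA22B, 1 was left without MMS replicate 1 and 2 without APH replicate 1, and FRA16D kept 7 and 8 and FRA8D 4 and 4 in the same order. FRA19A kept 11 and 6, whereas FRA4A fell to 6 without MMS replicate 2 and 7 without APH replicate 2. The 2 bands with 19 sites differed in their other peaks. FRA16D held 308 and 143 APH peaks and 300.0 and 274 HU peaks over 10 Mb, whereas FRA19A held 329 and 195 APH peaks and 1733 and 1545 HU peaks over 26.7 Mb. FRA3B at 3p14.2, chosen here because of FHIT, held 6 sites, all with a peak of APH replicate 1 and 1 left without that list or without MMS replicate 1, among 230.0 and 90.0 APH and 13 and 13 MMS peaks.

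What the rule did not use was then compared within each list, between the list's peaks in the sites and its peaks in 2 other kinds of region: those of its treatment alone, and the 1404 with APH, MMS and HU peaks. Each of 12 comparisons gave 4 differences, 1 for each APH and MMS list, tested with an exact two-sided sign-flip permutation test and adjusted over the 12 by Benjamini-Hochberg. With 4 lists this exact test cannot go below p = 0.125, so no comparison could pass 0.05, and the lists are not independent, since each site holds peaks of both treatments. Whether a difference exceeds the spread of the lists is therefore given by its range.

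Sites lay in longer genes and farther from transcription starts than regions that also had HU peaks. The median length of the gene around a peak was 122 and 115 kb in the sites' APH peaks and 110.0 and 127 kb in their MMS peaks. It was 43.6 and 42.1 kb in the APH peaks and 43.3 and 44.7 kb in the MMS peaks of regions with HU. The groups did not overlap, and the mean log2 difference was 1.44 ± 0.07 (SD, n = 4 lists), a 2.72-fold longer gene, higher in 4 of 4 lists (exact permutation p = 0.125, adjusted p = 0.167). Peaks within 10 kb of a transcription start made up 23.05% and 21.9% of the sites' APH peaks and 22.4% and 22% of their MMS peaks. In regions with HU the shares were 44.02% and 46.0% for APH and 44.05% and 42.9% for MMS. The difference was −21.9 ± 1.48 percentage points (SD, n = 4 lists), lower in 4 of 4 lists (exact permutation p = 0.125, adjusted p = 0.167). In the 6 sites with peaks in all 4 lists both means had the other sign, at −0.10 on the log2 scale and 9.74 percentage points. There the regions with HU were also limited to those with peaks in all 4 APH and MMS lists. For gene length as many lists were higher as lower.

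Against regions of 1 treatment alone both differences had the other sign and were smaller. The gene around a peak was shorter in the sites by 0.23 ± 0.10 on the log2 scale (SD, n = 4 lists), with lists between −0.33 and −0.14 and a ratio of 0.851 (exact permutation p = 0.125, adjusted p = 0.167). Peaks within 10 kb of a start were more frequent by 5.45 ± 1.05 percentage points (SD, n = 4 lists), with lists between 4.48 and 6.55 (exact permutation p = 0.125, adjusted p = 0.167). By both measures the 897 sites thus stood between the regions of a single treatment and those with HU. With all lists at p of at most 1e-04 (30 sites) gene length did not, as it was 0.20 above single treatments, and in the 6 sites with all 4 lists neither did. Peaks in genes over 500 kb made up 6.53% and 3.77% of the sites' APH peaks, against 10.8% and 8.05% of those in regions of APH alone. For MMS the shares were 4.64% and 5.25% in the sites and 5.92% and 7.14% in regions of MMS alone.

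Alu elements, short repeats derived from 7SL RNA, were found less often in the sites than in either kind of region. A match of at least 100 bp lay in the 500 bp around 9.26% and 7.55% of the sites' APH peaks and 7.79% and 10% of their MMS peaks. In regions of 1 treatment alone the shares were 12.5% and 11.7% for APH and 12.2% and 12.4% for MMS, and in regions with HU 16.5% and 17.4% for APH and 16.8% and 17.2% for MMS. The difference was −3.56 ± 0.89 points (SD, n = 4 lists) against a single treatment and −8.33 ± 1.31 points (SD, n = 4 lists) against regions with HU, lower in 4 of 4 lists in both (exact permutation p = 0.125, adjusted p = 0.167 for each). With all lists cut at a p-value of 1e-04, the rule gave 30 sites, and both differences had the other sign, at 9.49 and 9.21 points. That cut also removed weaker HU and untreated peaks, so these 30 are not simply the stronger of the sites described here. With only the APH and MMS lists cut at 1e-04, the rule gave 11 sites. The differences were then −1.59 and −3.88 points, with as many lists higher as lower in both. With peaks in both replicates of at least 1 treatment (110 sites) the difference against a single treatment was 1.30 points. There the regions of a single treatment were also limited to those with peaks in both replicates.

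GC content and the share in genes differed between lists in size or in sign. The mean GC content of the 500 bp around the sites' peaks was 47.0% and 45.7% for APH and 47.3% and 45.4% for MMS. Against MMS alone it was higher by 2.14 and 1.93 points, but against APH alone the differences were −0.01 and 0.16, so the mean of 1.06 ± 1.14 points (SD, n = 4 lists) came from the MMS lists (exact permutation p = 0.25, adjusted p = 0.30). Without MMS replicate 1 it was 0.055 points, and without APH replicate 2 it was 1.75. Against regions with HU it differed by −1.04 ± 0.65 points (SD, n = 4 lists, from −1.72 to −0.31, −0.40 without MMS replicate 2, −0.63 without APH replicate 2 and −1.78 without MMS replicate 1, exact permutation p = 0.125, adjusted p = 0.167). The share of peaks in protein-coding genes differed by 3.85 ± 5.64 points from single treatments (exact permutation p = 0.375, adjusted p = 0.409) and by 0.27 ± 2.83 points from regions with HU (exact permutation p = 0.875, adjusted p = 0.875; SD, n = 4 lists in both), within the spread of the lists. MMS replicate 2 had the opposite sign to the other 3 lists in both.

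The fragile site band share was slightly lower in the sites than in both kinds of region. It was 28.9% and 27.4% for the sites' APH peaks and 27.6% and 27.5% for their MMS peaks, against 32.3% and 29.3% for APH alone and 31.1% and 30.4% for MMS alone. The difference was −2.94 ± 0.73 points (SD, n = 4 lists) against single treatments and −1.69 ± 0.87 points (SD, n = 4 lists) against regions with HU, lower in 4 of 4 lists in both (exact permutation p = 0.125, adjusted p = 0.167 for each). The second was not stable. It became 0.69 points when an HU or untreated peak within 5 kb counted as one in the region. That setting moved sites near an HU peak, and not near an untreated one, into the regions with HU. The difference was −0.69 with an overlap of 50% of the shorter peak, −0.79 without HU replicate 2, −0.97 without APH replicate 1 and −2.89 without MMS replicate 1. Runs of at least 15 A or T, a sequence at which replication is known to slow, were rare in all of them, at 2.54% and 2.59% of the sites' APH peaks and 1.11% and 3.00% of their MMS peaks, against 2.82% and 2.91% for APH alone and 2.75% and 3.31% for MMS alone.

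**Figure D5:**
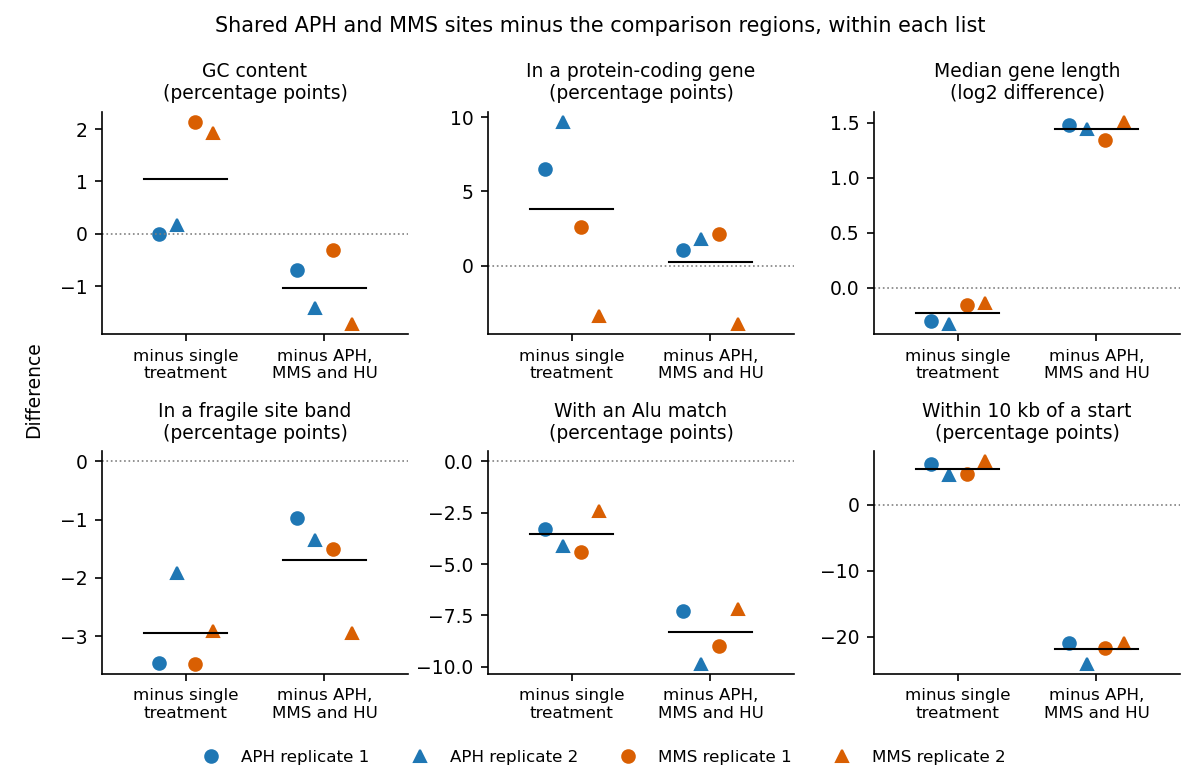
Difference between the peaks of the shared APH and MMS sites and those of regions with 1 treatment alone (left in each panel) or with APH, MMS and HU peaks (right), for 6 measures; the vertical axis is in percentage points, or log2 for gene length, on a different scale in each panel. Points are the 4 lists, black bars their means and the dotted line is 0; gene length and starts have means of opposite sign on the 2 sides, −0.23 and 1.44 and 5.45 and −21.9.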

How the data were processed

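Human B lymphocytes (GM09027A in the sample labels, GM07027 in the methods) were used for γH2AX ChIP-seq, 2 libraries per group. Per the study's methods, reads were aligned to GRCh38 (hg38 in the submitters' notes) with Bowtie2, filtered with SAMtools, stripped of duplicates and blacklisted regions, and broad peaks were called with MACS2 on each replicate against input, at p of at most 0.001. Versions are not given in the sources used here. The APH dose follows the labels; the methods give it as a molar concentration. The series has 1 input sample, with no drug in its label, so the lists may share 1 control. Input was not analysed here.

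Besides positions, the deposited files have 3 kinds of value from the authors' MACS2 run. The score that the authors deposited was not used. The deposited fold enrichment is a ratio to the local background. The deposited p and q of a peak are on the −log10 scale. The files hold no read numbers, so depth and counting error are unknown, and the spread of the lists is the only measure of precision.

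Peaks sharing at least 1 bp were merged in Python 3.11.15 (pandas 2.3.3). Genes and their lengths were taken from RefSeq, starts and exons from GENCODE release 44, sequence from hg38 (pysam 0.24.0) and fragile site bands from the study's band table. A region or peak belongs to a feature by its centre, and gene length is that of the longest gene there. Alu elements were found with BLAST+ 2.17.0: matches to 7SL RNA of at least 100 bp were too few, so, before any comparison of peaks, matches of at least 60 bp beginning in its first 5 bases were taken instead, and the most typical of 200 drawn copies was the query of a second search. Each list gave 1 difference per measure, tested by an exact sign-flip permutation of 4 lists. Replicates were called separate by the methods, but a p-value over the lists covers only their spread. The merging and the test were tested on simulated lists.

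The sites, the gene lists and the tests were chosen with earlier results of these data known. The text names the 10 genes with the most sites (ties by sites per Mb), the 10 sites with most lists and then highest mean fold enrichment, the members of 4 gene lists that hold a site, the 3 bands with most sites and the 3 with most per Mb among those with at least 5, and the chromosomes with the highest and lowest density; 1 of these sites is not reported here. Alternatives to the merging, overlap, distance, threshold, replication, chromosomes, windows, genes and lists were run.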

Additional observations from a re-analysis of the deposited data

How the results depend on the processing

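The number of sites (897) depended on the rule. It was 455 with no HU or untreated peak within 5 kb, 11 with APH and MMS peaks at p of at most 1e-04, 30 with that threshold in all lists, 1493 with the HU lists cut to the size of the APH lists, 110 with both replicates of at least 1 treatment and 6 with both of each. Leaving out 1 list gave 397 (without MMS replicate 1) to 1153 (without HU replicate 1), and 424, 546 and 540 without APH replicate 1, APH replicate 2 and MMS replicate 2. It stayed within 1.5 times when peaks within 1 kb were merged (1122), with an overlap of 50% (624), with chromosome X (897) and without the densest bins (883). Few peaks lay outside chromosomes 1 to 22 (APH replicate 1 had 17680 in all and 17658 on them). Adding chromosome X could therefore hardly change the count. Of 306 counts of sites in the named genes under 18 alternatives, 122 differed by more than 1.5 times.

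Of the 12 comparisons, those of GC content, against single treatments and against regions with HU, kept the sign of their mean in all 20 alternatives run. So did those of starts and of fragile bands against single treatments. The 20 include the replicate block described below, whose means are the same by construction, and chromosome X, which could hardly change them. GC content against single treatments was 0.055 points without MMS replicate 1, with 2 of the 3 lists left below 0. With only the APH and MMS lists cut at 1e-04, starts against single treatments differed by 1.14 points, with as many lists higher as lower. The other comparisons changed sign as follows. Gene share against regions with HU was −1.64 points with merging within 1 kb and −0.14 without the densest bins. With 1 list left out it ran from −1.64 (without MMS replicate 1) to 4.40 (without HU replicate 1). When HU or untreated peaks within 5 kb counted as in the region it was −3.04, and the fragile band share against regions with HU was 0.69. With that 5 kb limit, sites near an HU peak and not near an untreated one joined the regions with HU. At p of at most 1e-04 for APH and MMS, gene share against single treatments was −0.49 points. At that threshold in all lists gene length against single treatments was 0.20 (log2), and Alu shares were 9.49 and 9.21 points against single treatments and regions with HU. With both replicates of at least 1 treatment the first Alu share was 1.30. In the 6 sites with both replicates of each, gene length against regions with HU was −0.10, with as many lists higher as lower, and the share near starts 9.74 points. In both of these settings the compared regions were limited to replicated ones as well. The cause was not tested.

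As a replicate block, the APH and MMS lists of 1 replicate number were averaged first. The mean differences are then the same by construction (1.44 log2 for gene length and −21.9 points for starts against regions with HU), and with 2 values the smallest exact permutation p is 0.5. The labels give only a shared number, so the lists were not taken as paired.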
